A study of Mus musculus with 16 samples.

Results

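The comparison described here set the lymph nodes that drained a growing tumor against those that drained dead cells of the same tumor line, across all cell classes of the node. Its members were the cells of 6 of the 16 libraries of the series, 3 from live draining nodes and 3 from fixed draining nodes, chosen by the titles of the libraries. A cell was kept when it had 200 to 6000 detected genes and at most 30% mitochondrial transcripts. This gave 24385 of the 50386 kept cells of the series, 13700 from live draining nodes (5132, 4848 and 3720 in libraries A, B and C) and 10685 from fixed draining nodes (3972, 3366 and 3347). In the live draining group, C57Bl/6 mice received 500000 living MC38 cells, a mouse colon carcinoma line, under the skin of the lower right flank, and the inguinal node of that side was taken on day 12. In the fixed draining group, MC38 cells were fixed in paraformaldehyde before the injection and all else was the same. Mice of both groups were sex-matched, 8 weeks old and carried no engineered allele, and the study's methods give 3 mice for each treatment. The other libraries came from the opposite, non-draining nodes of these mice and from nodes of naive mice, and their mean levels are given only where they place a difference. Nodes were digested with enzymes and enriched for cells with surface podoplanin (Pdpn) before sequencing, so leukocytes are those that passed that enrichment.

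The stroma of a lymph node is built from fibroblastic reticular cells and lymphatic endothelial cells (LECs). Reticular cells lay down the collagen conduits and release the chemokines that place lymphocytes, with T zone reticular cells (TRCs) making Ccl19 and Ccl21, and marginal reticular cells (MRCs) and follicular dendritic cells (FDCs) making Cxcl13. LECs line the sinuses through which lymph from the tissue flows, first between the ceiling (cLEC) and floor (fLEC) of the subcapsular sinus and then through cortical (CorLEC) and medullary (MedLEC) sinuses. Interferon-γ, which T and NK cells release, acts on gamma-activated sites and induces Irf1, the guanylate binding proteins, the chemokines Cxcl9 and Cxcl10 and antigen presentation. Type I interferons act through the interferon-stimulated response element (ISRE) on an overlapping set of antiviral genes. Immediate early genes such as Fos, Egr1 and Nr4a1 are transcribed within minutes of a stimulus to a cell and encode short-lived regulators.

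The 6 libraries held 24402526 to 48945961 transcripts counted by unique molecular identifiers (UMIs). The median UMIs per kept cell ran from 4029 to 4192 in live draining nodes and from 4254 to 5098 in fixed draining nodes, and any 2 of these libraries shared 3 to 9 cell barcodes. The libraries carry codes that end in 06, 07 or 09, whose meaning the labels do not give. Live draining A and B and fixed draining C ended in 06, live draining C in 07, and fixed draining A and B in 09, so the code and the treatment overlap in part. Classes were named from markers in clusters of all 16 libraries and are written as "fLEC-like" and so on, while compartments (all LECs, all fibroblastic cells) are the same cells before this division. The marker genes of a class were used to name it and are no finding within it. Of a list of 16 epithelial genes of a carcinoma, 0 to 5 had enough counts to be tested in a class or compartment, and none of them was called higher in live draining nodes.

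Promoters of members of the gene groups that carry the main results are shown first, since the groups differ in the letters they hold just before the transcription start. They are mouse RefSeq sequences on GRCm38.p6, and capitals mark every match in the 250 bases before the start, searched on both strands. Isg15, Ifit3, Cxcl10 and Gbp2 hold the ISRE core (GAAA, a pair of bases of any kind and GAAA again), Irf1 holds the gamma-activated core TTCNNNGAA, and Dusp1 and Btg2 hold the cyclic AMP response element TGACGTCA. Matches of different motifs were counted separately even where they overlap, and the Isg15 stretch holds 3 overlapping ISRE matches.
Isg15, chr4:156200850-156200921, minus strand: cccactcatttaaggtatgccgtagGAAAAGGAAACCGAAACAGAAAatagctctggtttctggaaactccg
Ifit3, chr19:34583348-34583441, plus strand: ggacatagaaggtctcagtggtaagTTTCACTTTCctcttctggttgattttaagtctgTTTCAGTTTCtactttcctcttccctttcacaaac
Cxcl10, chr5:92349068-92349127, minus strand: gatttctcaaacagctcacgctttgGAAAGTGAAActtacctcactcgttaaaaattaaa
Gbp2, chr3:142620579-142620638, plus strand: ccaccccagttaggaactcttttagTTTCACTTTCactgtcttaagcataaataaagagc
Irf1, chr11:53769899-53769957, plus strand: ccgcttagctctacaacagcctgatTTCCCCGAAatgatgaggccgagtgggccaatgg
Dusp1, chr17:26508583-26508640, minus strand: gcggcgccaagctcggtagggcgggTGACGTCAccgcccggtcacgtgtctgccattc
Btg2, chr1:134079289-134079346, minus strand: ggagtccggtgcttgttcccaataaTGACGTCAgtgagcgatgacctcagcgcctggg
List members were counted as genes, with a match when any promoter of the gene had one, while the share over all is of single promoters. These shares are therefore not of like units. The ISRE core was in 14 of the 30 type I interferon genes that the table holds (46.7%) and in 12 of 18 genes of the interferon-γ list (66.7%). It was in 1 of 25 immediate early genes (4%), and in 978 of all 32851 promoters (2.98%). The gamma-activated core was in 4 of 30 (13.3%), 9 of 18 (50%) and 2 of 25 (8%), against 7.02% of all promoters. The cyclic AMP element was in 0 of 30, 0 of 18 and 3 of 25 (12%), against 1.55%. No match was found in the promoters of Cxcl9, Ubd, Tap1, Psmb9, Irf7, Cd274 and Nr4a1, which are discussed below, nor in a second Irf1 promoter of the table, and a match is a description of letters only.

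The shares of both stromal compartments differed between the treatments. Fibroblastic cells were 30%, 30.8% and 28.7% of kept cells in live draining nodes and 24.3%, 28.5% and 28.3% in fixed draining nodes, a log2 ratio of 0.15 ± 0.06 (SE) with an adjusted p of 0.024 by edgeR. The call was lost when the library code entered the fit (0.08), and also without live draining replicate A, live draining replicate B or fixed draining replicate A (0.14, 0.12 and 0.07). LECs were 19.2%, 19.8% and 18.1% of cells in live draining nodes, against 29.8%, 28.0% and 26.7% in fixed draining nodes (log2 ratio −0.56 ± 0.06, adjusted p = 3.5e-11). Naive nodes, at 18.5% to 20.8% LECs, and the non-draining nodes of mice with live tumors, at 19.8% to 20.6%, lay beside the live draining nodes, and the non-draining nodes of mice with fixed cells, at 32.5% to 34.8%, beside the fixed draining ones. With 3 libraries a side the exact permutation test cannot go below 0.10, and it gave 0.1 for each share whose groups did not overlap. Shares are of sequenced cells, so a higher share of one class and a lower share of the others cannot be told apart.

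**Figure D1:**
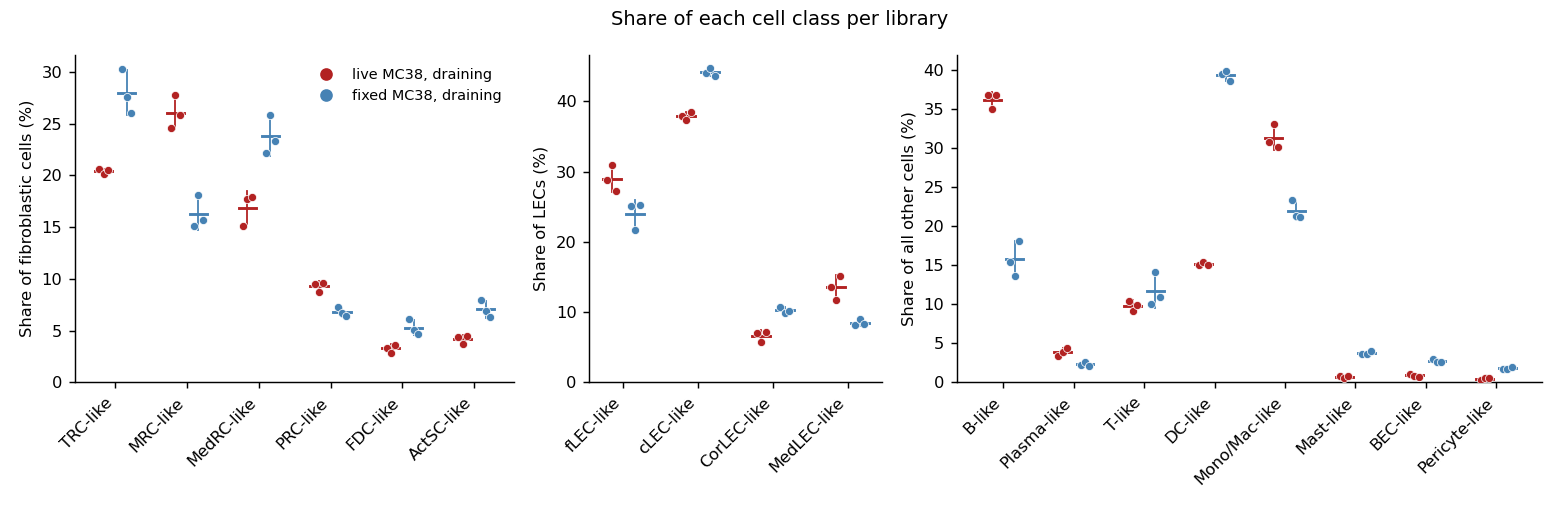
Percent of cells of each class within its compartment (fibroblastic cells, LECs, all other cells) in each library, with the 3 live draining libraries left of the 3 fixed draining libraries. Each point is 1 library, the horizontal bars give the mean and the vertical lines the SD of 3. The B cell points sit at 35.1% to 36.9% in live draining nodes and 13.6% to 18.2% in fixed draining nodes, and the dendritic cell points at 15.1% to 15.4% and 38.6% to 39.9%.

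Among all cells that were neither fibroblastic nor LECs, B cells and dendritic cells (DCs) differed by the most percentage points. B cells made up 36.8%, 35.1% and 36.9% in live draining nodes and 15.5%, 13.6% and 18.2% in fixed draining nodes (log2 ratio 1.2 ± 0.10, adjusted p = 6.2e-08). DCs made up 15.1%, 15.4% and 15.1% in live draining nodes and 39.6%, 39.9% and 38.6% in fixed draining nodes (−1.38 ± 0.05, adjusted p = 1.9e-11). For both classes the naive and non-draining nodes lay nearer to the fixed draining nodes, with B cells at 14.2% to 22.5% and DCs at 31.4% to 35.0%. Mast cells, tissue cells that store histamine, averaged 0.720% ± 0.119 in live draining nodes and 3.74% ± 0.211 in fixed draining nodes (SD, n = 3; −2.37, adjusted p = 7e-09). Blood endothelial cells (BECs) averaged 0.902% and 2.78% (−1.6, adjusted p = 0.0057) and pericytes 0.498% and 1.80% (−1.86, adjusted p = 4e-04), while the BEC ratio fell short of the threshold at −0.68 with the library code in the fit. Monocytes and macrophages averaged 31.3% ± 1.54 and 22% ± 1.22 (0.51, adjusted p = 4.4e-05). Plasma cells averaged 3.9% and 2.32% (0.74, adjusted p = 0.032), a call that 9 of the alternatives removed. A small unnamed cluster led by division genes held 95 cells of live and 25 of fixed draining nodes (1.38, adjusted p = 0.0018).

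Within the stroma, MRC-like cells took 24.6%, 27.8% and 25.8% of fibroblastic cells in live draining nodes, against 15.1%, 18.1% and 15.7% in fixed draining nodes (0.67 ± 0.08, adjusted p = 1e-05). TRC-like cells took 20.6%, 20.1% and 20.5%, against 30.3%, 27.6% and 26.0% (−0.45 ± 0.12, adjusted p = 0.0037). The perivascular reticular cell (PRC)-like class was higher in share (9.30% and 6.79%, 0.45, adjusted p = 0.022), and the medullary reticular cell (MedRC)-like and FDC-like classes were lower (−0.49 and −0.69, adjusted p = 0.0033 for each). These classes were built in part from genes that differed between the treatments. When the cells were clustered again without 8580 such genes, the MRC-like ratio was 0.26 and the TRC-like ratio −0.18, and neither passed. Among LECs, the MedLEC-like share was higher (13.6%, 11.8% and 15.2%, against 8.19%, 9.03% and 8.28%, log2 ratio 0.66 ± 0.16, adjusted p = 0.0023). The CorLEC-like share was lower (6.65% and 10.3%, −0.64, adjusted p = 0.00016), as was the cLEC-like share (37.9% and 44.1%, −0.22, adjusted p = 0.0049). Clusters left without a name held 19.8% of fibroblastic cells in live and 12.8% in fixed draining nodes, and 12.9% and 13.1% of LECs. No direction can be given for fLEC-like cells, since their ratio was 0.28 (adjusted p = 0.012) in the main clustering and −0.53 (adjusted p = 3e-07) without the responsive genes.

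UMIs were summed per library and class and compared with edgeR's quasi-likelihood test, and a gene counted as called when its p, adjusted by Benjamini-Hochberg over all tested genes, was under 0.05. In such sums, fewer cells that express a gene and less RNA of it per cell cannot be told apart. Among the classes, fLEC-like, MRC-like and cLEC-like cells held the most calls. In all LECs, 5518 of 14201 genes were called (38.9%), 2884 higher and 2634 lower in live draining nodes, and in all fibroblastic cells 4086 of 15141 (27%), 2266 higher and 1820 lower. Among subsets, 3939 genes were called in fLEC-like cells (34.8%), 2885 in MRC-like cells (25.7%), 2934 in cLEC-like cells (24.6%) and 1351 in MedLEC-like cells (13.8%). DCs had 1328 calls (11.1%), monocytes and macrophages 1160 (10.5%), activated stromal cell (ActSC)-like cells 919 (10.1%, with 4.89% higher and 5.19% lower), MedRC-like cells 1115 (9.77%) and TRC-like cells 991 (8.29%). PRC-like cells had 245 (3.14%), T cells 221 (2.58%), CorLEC-like cells 135 (1.75%), FDC-like cells 59 (1.04%), plasma cells 39 (0.947%), mast cells 17 (0.902%), BECs 39 (0.635%) and B cells 35 (0.386%). With the library code in the fit each of these counts fell by more than 1.5 times, apart from that of all LECs. Power differed with the number of cells and UMIs, and in simulated counts a 2-fold change was recovered in 98.5% of genes for fLEC-like cells and 52.2% for FDC-like cells. The fLEC-like class came mainly from 1 cluster in live draining nodes (578 of 765 cells in LEC cluster 9, led by Cxcl9 and Ccl20) and from others in fixed draining nodes (5 of 726 cells in cluster 9, and 420, 191 and 110 in clusters 1, 10 and 12).

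**Figure D2:**
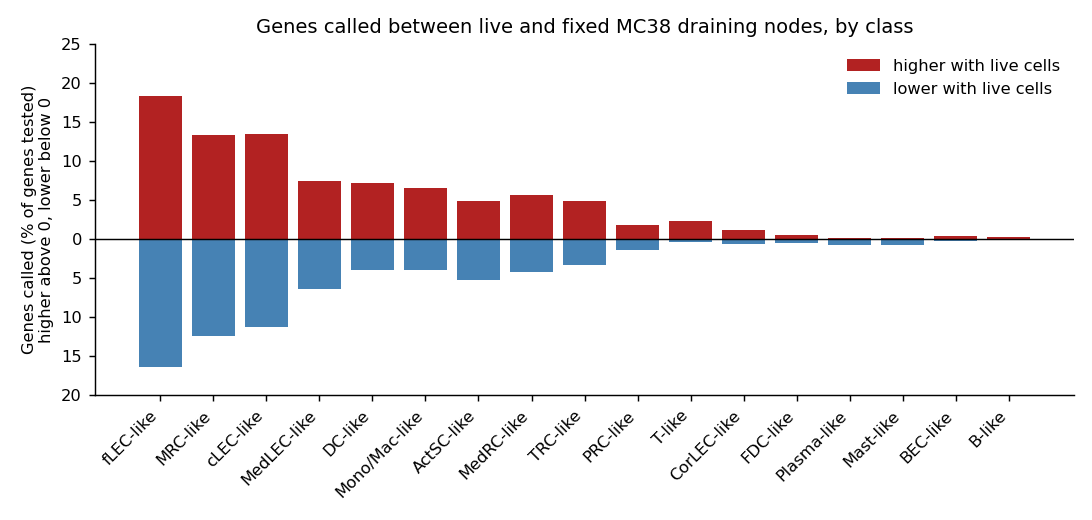
Percent of tested genes called at an adjusted p under 0.05 between live and fixed draining nodes in each class, with genes higher in live draining nodes above 0 and genes lower in them below 0. The bars of fLEC-like cells reach 18.4% above and 16.4% below, and those of B cells 0.254% and 0.132%.

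Genes induced by interferon-γ were higher in the summed LECs of live draining nodes, and some were lower in the summed fibroblastic cells. In all LECs, 29 of 29 tested members of the interferon-γ list were called higher, against 20.3% of all genes, with a median log2 fold change of 1.33 beside −0.022 over all genes. In all fibroblastic cells, 2 of 29 members were higher and 13 lower, against 15% and 12% of all genes, with a median of −0.23. Genes named here for the whole compartments that were chosen after their values were seen are Irf1, Gbp2, Isg15, H2-K1, Socs3 and Ier3 in LECs and Gbp2, Isg15, Ubd, H2-K1 and B2m in fibroblastic cells.

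Cxcl9 and Cxcl10 encode chemokines that draw T and NK cells bearing Cxcr3. In all LECs, Cxcl9 stood at 2024, 2186 and 1984 CPM (UMIs scaled to a common total per library and class) in live draining nodes, against 23.3, 59.3 and 25.3 CPM in fixed draining nodes (log2 fold change 5.85 ± 0.44, SE; adjusted p = 5.9e-07). Naive and non-draining nodes averaged 25.7 to 41.0 CPM, and none of these groups came near the live draining nodes. Cxcl10 stood at 1009, 1092 and 1057 CPM, against 88.1, 74.5 and 88.6 CPM (3.65 ± 0.27, adjusted p = 5e-07). In all fibroblastic cells Cxcl9 was lower, with 194, 159 and 114 CPM in live draining nodes and 337, 366 and 466 CPM in fixed draining nodes (−1.32 ± 0.22, adjusted p = 0.00086). The 3 live libraries lay below all 3 fixed libraries and below the naive mean of 266 CPM. Fibroblastic Cxcl10 overlapped between the treatments (90.8, 110.2 and 78.2 CPM, against 93.0, 104 and 128 CPM, adjusted p = 0.52).

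Regulators and effectors of the pathway were higher in LECs, and some were lower in fibroblastic cells. Irf1, a transcription factor induced by interferon-γ, was higher in LECs (143 ± 6.76 CPM in live and 102 ± 2.83 CPM in fixed draining nodes, SD, n = 3, log2 fold change 0.49) and lower in fibroblastic cells (54.7 ± 1.24 and 76.5 ± 8.63 CPM, −0.49, adjusted p = 1.6e-06). Gbp2, a guanylate binding protein of cell-autonomous defense, rose in LECs (196, 202 and 182 CPM, against 49.9, 58.6 and 53.3 CPM, 1.84 ± 0.08, adjusted p = 1.9e-15). In fibroblastic cells Gbp2 had a log2 fold change of −0.45 that did not pass (adjusted p = 0.052), while Gbp5 fell (28.5 ± 2.96 and 42.3 ± 3.71 CPM, −0.58, adjusted p = 4.8e-06). Ubd, a ubiquitin-like protein that tags proteins for the proteasome, had 260.1, 396 and 283 CPM in LECs of live draining nodes, against 47.4, 45 and 52.3 CPM (2.70 ± 0.17), and 50.2, 51.4 and 51.4 CPM in fibroblastic cells, against 100.3, 113 and 102 CPM (−1.04 ± 0.13, adjusted p = 7.3e-05).

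Within the LECs, all 28 tested members of the list rose in fLEC-like cells (median 1.91, against 18.4% of all genes higher), 24 of 28 in MedLEC-like cells (1.32, against 7.46%), 16 of 28 in cLEC-like cells (0.50, against 13.5%) and 1 of 22 in CorLEC-like cells (against 1.19%). No member was called lower in these 4 classes. In CorLEC-like cells Cxcl9 overlapped (41.0, 59.4 and 82.6 CPM, against 62.4, 67.0 and 171 CPM, adjusted p = 0.78). Cxcl9 had 4909, 4469 and 4865 CPM in fLEC-like cells of live draining nodes, against 50.3, 15.8 and 26.1 CPM in fixed draining nodes (7.19 ± 0.45, adjusted p = 8.9e-08). Cxcl10 had 2197, 1892 and 2270.3 CPM, against 40.1, 46.0 and 77.8 CPM (5.31 ± 0.33). Since Cxcl9 leads the cluster that holds most of these live cells, it was also compared within the other single clusters of the class. It was higher in cluster 1 (3.62 ± 0.51, adjusted p = 0.00096) and cluster 10 (3.66 ± 0.75, adjusted p = 0.018), and did not pass in cluster 12 (0.71 ± 0.88, adjusted p = 0.85). After thinning each cell to 2000 UMIs, a Cxcl9 UMI was found in 56.9%, 63.9% and 57.0% of fLEC-like cells of live draining nodes and in 2.88%, 2.60% and 3.45% in fixed draining nodes. B cells, which should lack the transcript, showed it in 6.12%, 8.65% and 7.59% and in 1.08%, 0% and 1.27%. Median depths before thinning were 1015 to 1046 and 1151 to 1308.5 UMIs in B cells, against 12045 to 15376 and 6933 to 8315 in fLEC-like cells. Cells under 2000 UMIs were left out, which were most B cells (665 of 959, 575 of 841 and 506 of 730 in live and 189 of 282, 138 of 199 and 195 of 274 in fixed draining nodes), so that the B cell shares are those of its deeper cells. The unthinned means for fLEC-like cells were 75.4% and 7.97%. Different clusters held most MedLEC-like cells of the treatments, cluster 11 (led by Marco, Cxcl10 and Cmpk2) with 187 of 349 cells in live draining nodes and cluster 8 (led by Phlda1, Bag3 and Hspa1a) with 137 of 256 in fixed draining nodes. In MedLEC-like cells the thinned share was 33.8%, 34.3% and 31.0%, against 2.20%, 2.47% and 2.78%. The summed MedLEC-like Cxcl9 did not pass (1355, 1339 and 1053 CPM, against 22.8, 627 and 36.7 CPM, adjusted p = 0.15), as fixed draining replicate B stood apart. The share in cLEC-like cells of live draining nodes (2.75%, 5.07% and 4.10%) was below that of B cells. B cells are shallower before thinning, so this comparison cannot tell background from expression. Without thinning the cLEC-like share was 13.4%, 16.7% and 12.4%, against 2.87%, 1.66% and 1.28% in fixed draining nodes.

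In TRC-like cells 0 of 28 members of the interferon-γ list were higher and 6 were lower, against 4.94% and 3.35% of all genes, with a median of −0.27. Cxcl9 had 434, 410.1 and 283 CPM in live draining nodes, against 756, 858 and 1017 CPM in fixed draining nodes (−1.22 ± 0.21, adjusted p = 0.0045). Within the cluster of this class that Cxcl9 leads, the fold change was −0.66 (adjusted p = 0.60). The thinned share of TRC-like cells with a Cxcl9 UMI was 15.7%, 13.1% and 19.8%, against 16.9%, 17.9% and 21.8%, so these ranges overlapped. Ubd was also lower at −1.5 (adjusted p = 0.0018). MRC-like cells had 4 members higher and 1 lower of 24, against 13.3% and 12.4% of all genes, and MedRC-like cells 2 higher and 1 lower of 27, against 5.64% and 4.14%. No fall of Cxcl9 was called in MRC-like or PRC-like cells. In MRC-like cells Cxcl9 had 71.9, 76.0 and 21.6 CPM in live draining nodes, against 9.74, 13.7 and 4.11 CPM in fixed draining nodes (2.62 ± 1.45, adjusted p = 0.23), and in PRC-like cells 352, 47.6 and 126 CPM, against 10.2, 2.05 and 6.80 CPM (4.74 ± 1.51, adjusted p = 0.14). Neither passed, though the live libraries lay above the fixed ones in both. Low Cxcl10 rose in MRC-like cells (45.7, 28.4 and 31.8 CPM, against 1.95, 6.01 and 2.06 CPM, 3.30 ± 0.70, adjusted p = 0.0044). The thinned share of MRC-like cells with a Cxcl9 UMI (3.03%, 4.23% and 3.38% in live draining nodes) was below that of B cells. B cells are shallower before thinning, so this comparison cannot tell background from expression. Without thinning the MRC-like share was 15.8%, 17.3% and 16.7%, against 3.42%, 6.9% and 3.36% in fixed draining nodes. In PRC-like cells of live draining nodes the thinned share was 12.3%, 11.3% and 5.68%, against 6.12%, 8.65% and 7.59% in B cells.

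**Figure D3:**
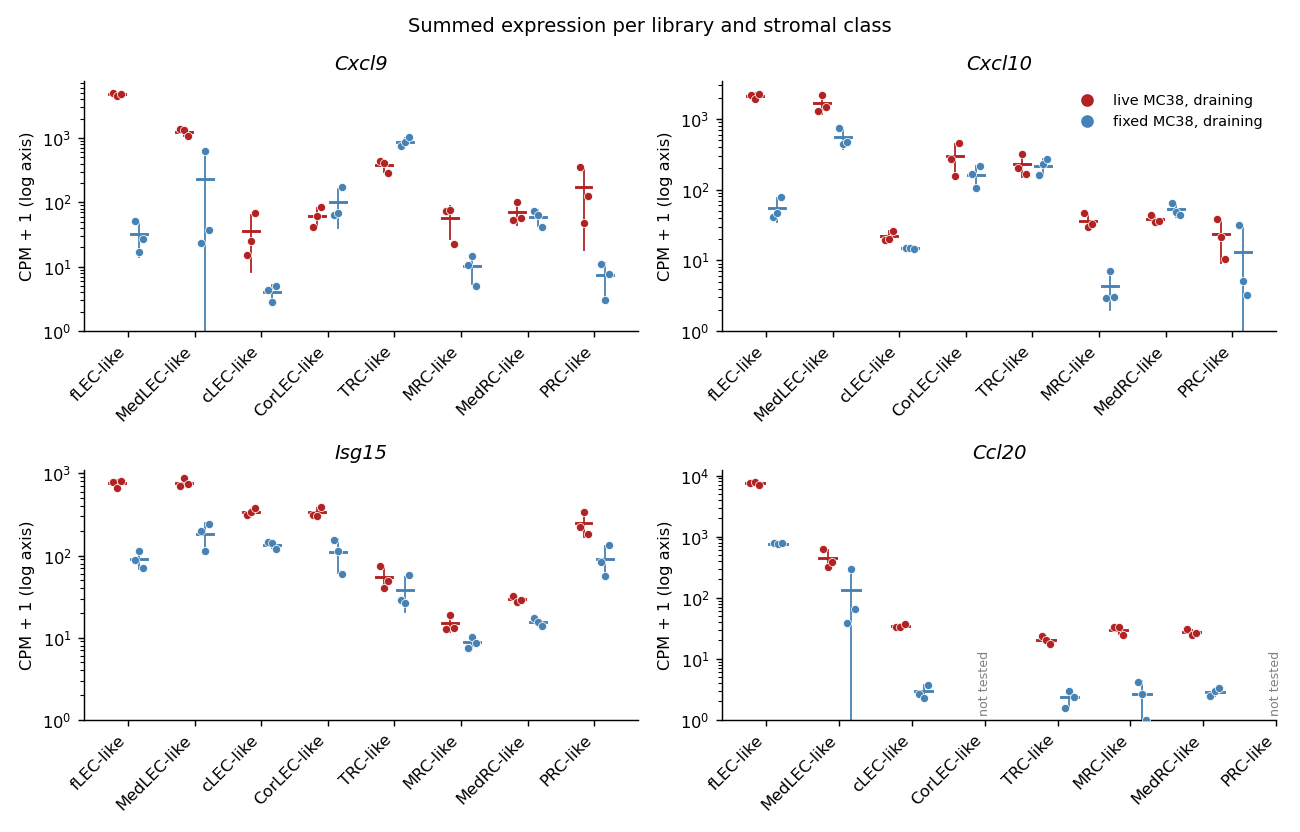
CPM plus 1, on a log axis, of Cxcl9, Cxcl10, Isg15 and Ccl20 in 8 stromal classes, with live draining libraries left of fixed draining libraries. Points are single libraries and bars give the mean and SD of 3. In fLEC-like cells the live draining points of Cxcl9 sit between 4469 and 4909 and the fixed draining points between 15.8 and 50.3, while in TRC-like cells the live draining points lie below the fixed ones. Ccl20 was not tested in CorLEC-like and PRC-like cells.

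Antigen presentation followed the same line between compartments. Of 20 genes of MHC class I presentation, 18 were higher and 0 lower in all LECs, and 3 were higher and 7 lower in all fibroblastic cells. Over all genes, 20.3% were higher and 18.5% lower in LECs, and 15% and 12% in fibroblastic cells. The 3 higher members in fibroblastic cells are thus near the share over all genes. Tap1, which carries peptides to MHC class I, had 303, 302 and 311 CPM in LECs of live draining nodes, against 142, 146 and 144 CPM (1.08 ± 0.05, adjusted p = 2.1e-17), and the immunoproteasome subunit Psmb9 had 323 ± 3.97 and 194 ± 1.57 CPM (0.74). The heavy chain H2-K1 differed less, at 5545, 5499 and 5489 CPM, against 4361, 4355 and 4284 CPM (0.35 ± 0.07, adjusted p = 0.00011). In fibroblastic cells H2-K1 was slightly lower (1742, 1733 and 1770.1 CPM, against 1924, 1921 and 2015 CPM, −0.16 ± 0.06, adjusted p = 0.049), a call lost without any one of the 6 libraries (adjusted p = 0.096 to 0.19). Its partner B2m was lower too (−0.21, adjusted p = 0.012). For MHC class II, 8 of 12 genes rose in all LECs (median 0.75), and 6 of 8 fell in TRC-like cells (median −0.79, against 3.35% of all genes). H2-Ab1, a class II chain, had 125, 133 and 144 CPM in TRC-like cells of live draining nodes, against 208, 266 and 252 CPM (−0.86 ± 0.14, adjusted p = 0.0028). The summed levels of myeloid markers were 139 to 182 CPM in LECs of live and 71.7 to 81.4 CPM of fixed draining nodes. Those of B cell markers were 40.9 to 50.7 CPM and 15.5 to 19.1 CPM. The part of both in the class II rise of LECs was not tested.

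Type I interferon genes were higher in the LECs and in part in the fibroblastic cells. All 38 tested members were higher in all LECs (median 1.21, against 20.3% of all genes). In all fibroblastic cells 9 were higher and 1 lower of 36 (median 0.22, against 15% and 12%). Isg15, a ubiquitin-like modifier, had 544, 569 and 588 CPM in LECs of live draining nodes, against 129, 130.3 and 114 CPM in fixed draining nodes (2.19 ± 0.14, adjusted p = 1.1e-07). The naive mean of 223 CPM lay between these levels. In fibroblastic cells Isg15 had 51.6, 56.0 and 43.4 CPM, against 21.3, 19.8 and 36.7 CPM (0.99 ± 0.22, adjusted p = 0.0053). Irf7, the amplifier of type I interferon synthesis, rose in both compartments (217, 227 and 234 CPM, against 48.4, 50.0 and 47.6 CPM in LECs, 2.22 ± 0.12, and 17.1 ± 0.479 and 8.45 ± 1.5 CPM in fibroblastic cells, 1.03 ± 0.13). Ifi27l2a, an interferon-induced protein of the mitochondrial membrane, rose in fibroblastic cells (219.8, 243 and 280.4 CPM, against 62.7, 48.4 and 56.9 CPM, 2.14 ± 0.15, adjusted p = 8.6e-07). In the subsets, 37 of 37 members rose in fLEC-like, 31 of 36 in MedLEC-like, 22 of 35 in cLEC-like and 4 of 29 in CorLEC-like cells. Over all genes, 18.4%, 7.46%, 13.5% and 1.19% were higher in these classes. Ifit2, which binds foreign RNA, had 297, 214 and 278 CPM in fLEC-like cells, against 17.9, 21.0 and 14.1 CPM (3.88 ± 0.14, adjusted p = 4.3e-26). In MedLEC-like cells Iigp1, an immunity-related GTPase, had 1378, 1527 and 1442 CPM, against 418, 474 and 490.1 CPM (1.65 ± 0.13), and in CorLEC-like cells Isg15 had 313, 306 and 387 CPM, against 155, 112 and 58.8 CPM (1.54 ± 0.28, adjusted p = 0.0075). MedRC-like cells had 10 members higher of 29 (against 5.64% of all genes) and PRC-like cells 6 of 27 (against 1.77% higher and 1.37% lower). TRC-like cells had 5 of 34 (against 4.94%) and MRC-like cells 5 of 22 (against 13.3%).

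**Figure D4:**
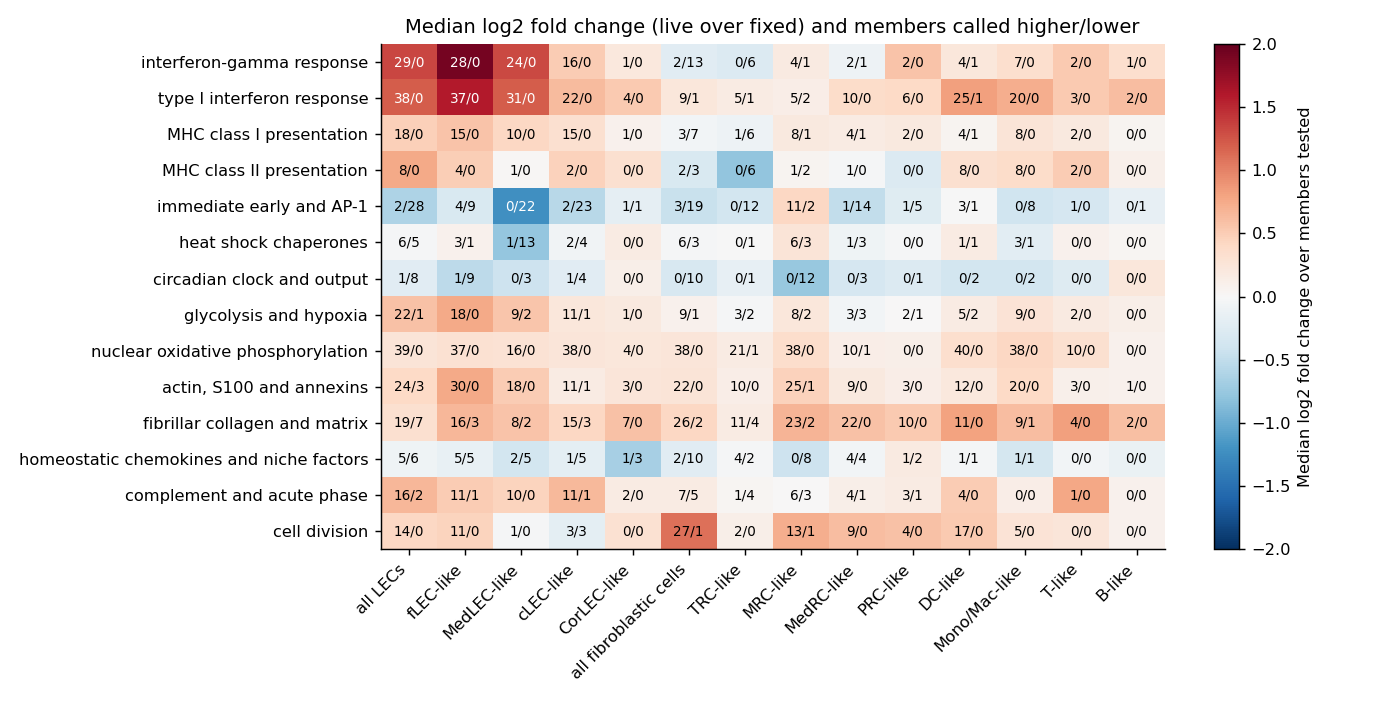
Median log2 fold change of live over fixed draining nodes for 14 gene lists (rows) in 12 classes and 2 compartments (columns), with color giving the median and each cell giving the number of members called higher and lower. The interferon rows are deepest in fLEC-like cells (28 and 0 of 28 for interferon-γ, 37 and 0 of 37 for type I), and the immediate early row is deepest in MedLEC-like cells, with 0 higher and 22 lower.

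The difference between the 2 compartments was tested itself, as the fold change in all LECs minus that in all fibroblastic cells. It was called for 1083 of 13448 genes (8.05%), 719 with a higher and 364 with a lower fold change in LECs, and 197 genes were called in opposite directions and differed. Of the interferon-γ list, 27 of 29 members had a higher fold change in LECs, of the type I list 26 of 36 (1 lower) and of MHC class I presentation 17 of 20. Cxcl9 differed by 7.31 on the log2 scale (adjusted p = 3.6e-06) and Ubd by 3.70 (adjusted p = 1.5e-07). Between fLEC-like and TRC-like cells 736 of 10440 genes differed (7.05%), with 25 of 28 interferon-γ members and 16 of 20 MHC class I members higher in fLEC-like cells, and between fLEC-like and cLEC-like cells 780 of 10801 (7.22%), with 20 interferon-γ members higher and 1 lower. These counts depend on the fit. With the library code as a term they were 589, 439 and 502, and with only the 6 draining libraries 2351, 1838 and 1713.

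Besides interferon genes, fLEC-like cells of live draining nodes carried Ccl20, Fgf23 and a set of immune modulators. Ccl20, Fgf23, Reg3g and Cd200 are among the leading genes of LEC cluster 9. That cluster held 578 of 765 cells of the class in live and 5 of 726 in fixed draining nodes. The values below therefore in part describe that cluster, and none are given within the other clusters. Ccl20, which draws Ccr6-bearing lymphocytes to the floor of the sinus, had 7692, 7828 and 6998 CPM, against 778, 761 and 771 CPM in fixed draining nodes (3.28 ± 0.14, adjusted p = 3.6e-19). Its naive mean of 643 CPM was close to the fixed draining nodes. A Ccl20 UMI was found in 85.1%, 82.5% and 84.9% of thinned fLEC-like cells, against 26.3%, 24.5% and 20.2%, while B cells had it in 12.6%, 10.2% and 6.70%, against 1.08%, 1.64% and 0%. Fgf23, a hormone of phosphate balance made mainly by bone, had 263, 298 and 209.8 CPM, against 2.19, 11.8 and 15.1 CPM (4.86 ± 0.44, adjusted p = 1.3e-05), and was in 26.4%, 29.3% and 26.3% of thinned cells, against 0.360%, 0.521% and 0.493%. No thinned B cell of these libraries had an Fgf23 UMI. In MedLEC-like cells Fgf23 had 191, 210.0 and 189 CPM, against 18.5, 18.6 and 9.58 CPM (3.64 ± 0.46, adjusted p = 0.00018). Of 16 immune modulators tested in fLEC-like cells 10 rose and 3 fell, against 18.4% and 16.4% of all genes. The rises were led by Cd200, a ligand that restrains myeloid cells (379, 418 and 401 CPM, against 49.6, 51.1 and 55.4 CPM, 2.94 ± 0.09, adjusted p = 1.7e-31), and the galectin Lgals9 (214 ± 20.3 and 59.9 ± 5.85 CPM, 1.82). Cd274, which encodes PD-L1, rose less (244, 229 and 223 CPM, against 148, 167 and 157 CPM, 0.57 ± 0.08, adjusted p = 1.7e-07), and its thinned share of cells overlapped (32.2%, 27.9% and 29.6%, against 27.3%, 29.7% and 28.1%). Reg3g, an antimicrobial lectin, rose by 3.57 ± 0.16 (276, 259.9 and 339 CPM, against 25.2, 18.9 and 28.7 CPM).

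Low Ccl20 was also called in classes with hardly any of it in fixed draining nodes. It stood at 33.7 ± 1.98 CPM in cLEC-like, 19.6 ± 3.35 CPM in TRC-like, 29.2 ± 5.04 CPM in MRC-like and 82.4 ± 13.8 CPM in B cells of live draining nodes, against 1.92 ± 0.781, 1.33 ± 0.730, 1.63 ± 1.62 and 3.71 ± 0.783 CPM in fixed draining nodes. The thinned share of MRC-like cells of live draining nodes with a Ccl20 UMI (8.26%, 6.47% and 4.14%) was below that of B cells in each library. B cells are shallower before thinning, so this comparison cannot tell background from expression. Without thinning the MRC-like share was 31.9%, 25.3% and 24.3%, against 3.42%, 1.72% and 0% in fixed draining nodes. Summed LEC markers were lower in fLEC-like cells of live draining nodes (1690 to 1890 CPM, against 2510 to 2640 CPM), and their part in these results was not tested.

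Metabolic and cytoskeletal genes of fLEC-like cells rose together. Of the glycolysis and hypoxia list 18 of 25 members rose and 0 fell (median 0.76), against 18.4% and 16.4% of all genes. Glucose enters through Slc2a1, which had 155, 169.9 and 177 CPM, against 55.1, 66.0 and 53.3 CPM (1.53 ± 0.10, adjusted p = 2e-18). The pyruvate kinase Pkm rose by 1.14 ± 0.08 and the lactate dehydrogenase Ldha by 1.21 ± 0.09 (305, 303 and 296 CPM, against 132, 138 and 122 CPM). In all LECs 22 of 29 members of this list rose and 1 fell, against 20.3% and 18.5% of all genes. The fold change was higher in fLEC-like than in TRC-like cells for 12 of 25 members, where 7.05% of all genes differed in either direction. Of the actin, S100 and annexin genes 30 of 34 rose, among them S100a11 (1365, 1353 and 1460.3 CPM, against 436, 416 and 381 CPM, 1.76 ± 0.11) and the actin-bundling Tagln2 (693 ± 15.1 and 206 ± 10.1 CPM, 1.75). The matrix glycoprotein Fn1 rose by 1.92 ± 0.10 (1107, 1121 and 989.5 CPM, against 291, 305 and 255 CPM).

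Of 26 lymphatic identity genes in this class, 11 were lower and 5 higher (median −0.30), against 16.4% and 18.4% of all genes. The 5 higher members are near the share over all genes, and the rest were not called. Prox1, the transcription factor that sets lymphatic fate and one of the genes that named the LECs, had 372, 437 and 355 CPM in live draining nodes, against 669, 676 and 701 CPM (−0.81 ± 0.09, adjusted p = 4.5e-11). The Vegf receptor Kdr fell by 0.87 on the log2 scale. The naive means of Prox1 and Kdr were 752 and 826 CPM. Pdpn, the enrichment antigen, was higher (162, 142 and 162 CPM, against 91.2, 93.0 and 83.0 CPM, 0.80 ± 0.09), while Plvap, which forms the diaphragms of sinus channels, overlapped (929 ± 44.6 and 904 ± 36.8 CPM, adjusted p = 0.77). Among the falls of most size were those of Tmem229a (2.35, 2.12 and 1.21 CPM, against 39.4, 42.4 and 41.3 CPM, −4.33 ± 0.22), the proteoglycan Bcan (−3.74 ± 0.21) and the neurotrophin receptor Ngfr (−2.73 ± 0.16).

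cLEC-like cells, which face the incoming lymph on the capsule side, had more of several acute phase genes. Of 18 complement and acute phase genes 11 rose and 1 fell (median 0.65). The protease inhibitor Serpina3n had 242, 277 and 258 CPM in live draining nodes, against 30.1, 33.6 and 21.7 CPM (3.16 ± 0.11, adjusted p = 9.7e-20), and the acute phase glycoprotein Lrg1 had 1245, 1256 and 1251 CPM, against 447, 478 and 383 CPM (1.52 ± 0.07). Complement factor B (Cfb) rose by 1.08 ± 0.09 and the C1 inhibitor Serping1 by 1.33 ± 0.10. Of 25 genes of lipid uptake and handling 12 rose and 5 fell (median 0.36, against 13.5% and 11.2% of all genes). The fatty acid receptor Cd36, one of the genes that named the class, had 567, 502 and 649 CPM, against 1698, 1584 and 1352 CPM (−1.43 ± 0.09), and in all LECs it fell likewise (−1.6 ± 0.08). The sterol-regulated gene Insig1 rose by 1.43 ± 0.15, and the lipid carrier Apoe fell (241, 215 and 199 CPM, against 435, 418 and 419 CPM, −0.95 ± 0.08). Tgfb2 fell by 1.6 on the log2 scale (24.6, 34.7 and 29.1 CPM, against 91.4, 90.1 and 86.2 CPM).

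Immediate early and AP-1 genes were lower in live draining nodes in both stromal compartments. Nodes were digested with enzymes before sequencing, and the part of that step in these levels was not tested. In all LECs 28 of 31 members fell and 2 rose, against 18.5% of all genes lower (median −0.61). In all fibroblastic cells 19 of 31 fell and 3 rose (median −0.44), against 12% and 15% of all genes. Nr4a1, an orphan nuclear receptor induced by many stimuli, had 42.9, 38.7 and 35.5 CPM in LECs of live draining nodes, against 179.9, 192 and 159 CPM in fixed draining nodes (−2.17 ± 0.14, adjusted p = 6.5e-08). In fibroblastic cells it had 49.1, 37.7 and 51.1 CPM, against 103, 132 and 95.9 CPM (−1.27 ± 0.16, adjusted p = 8.2e-05). Fos, a subunit of AP-1, had 659.5, 766 and 743 CPM in LECs, against 1456, 1492 and 1363 CPM (−0.99 ± 0.07), and 331, 282 and 375 CPM in fibroblastic cells, against 667, 638 and 587 CPM (−0.94 ± 0.14). These genes varied among the other nodes too, with LEC Fos means of 2256 CPM in non-draining nodes of mice with live tumors, 1133 CPM in those of mice with fixed cells and 1468 CPM in naive nodes. The phosphatase Dusp1, whose promoter holds the cyclic AMP element shown above, had 147, 162 and 177 CPM in LECs, against 390.2, 393 and 359.9 CPM (−1.24 ± 0.07). Socs3, which brakes cytokine signals, and Ier3 were the 2 that rose in LECs (288, 282 and 292 CPM, against 147, 171 and 139.7 CPM for Socs3, 0.91 ± 0.07, and 0.57 ± 0.06 for Ier3).

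**Figure D5:**
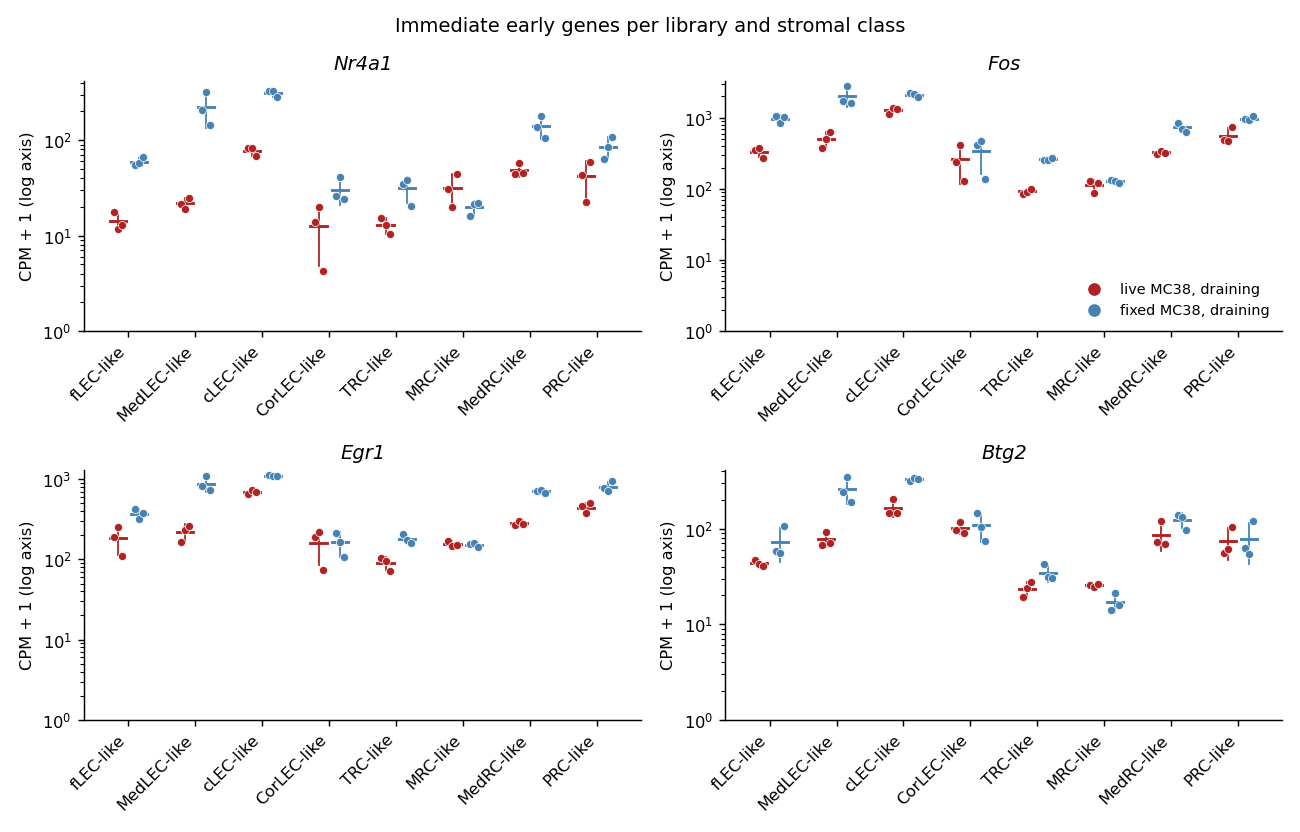
CPM plus 1, on a log axis, of Nr4a1, Fos, Egr1 and Btg2 in 8 stromal classes, with live draining libraries left of fixed draining libraries. Points are single libraries and bars give the mean and SD of 3. In MedLEC-like cells the live draining points of Fos sit at 374 to 628 and the fixed draining points at 1599.6 to 2762.

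In MedLEC-like cells 22 of 30 members fell and 0 rose (median −1.22, against 6.38% of all genes lower), with most cells of fixed draining nodes in cluster 8, whose leading genes include heat shock genes and Dusp1. Nr4a1 had 20.5, 17.9 and 24.0 CPM there, against 206, 316 and 144 CPM (−3.42 ± 0.26, adjusted p = 5.3e-08), and the zinc finger factor Egr1 had 165, 235 and 263 CPM, against 832, 1084 and 729.5 CPM (−2.0 ± 0.19). Heat shock chaperones fell in the same cells, 13 of 16 with 1 higher (median −0.78), and the part of the digestion was not tested here either. The chaperone Hsph1 had 165, 187 and 253 CPM, against 528, 795 and 599 CPM (−1.68 ± 0.20, adjusted p = 6.3e-06), and its naive mean was 691 CPM. Of the immediate early members, 23 of 31 were lower and 2 higher in cLEC-like cells (against 11.2% of all genes lower). The cLEC-like class includes clusters with immediate early genes among their leading genes, cluster 5 (Fosb and Nr4a1) and cluster 7 (Nr4a1, Egr1 and Fos). Their shares of LECs were 4.35% and 2.27% in live draining nodes, against 7.57% and 7.64% in fixed draining nodes. In TRC-like cells 12 of 27 members were lower and 0 higher (against 3.35%), and in MedRC-like cells 14 of 29 lower and 1 higher (against 4.14%). In fLEC-like cells 9 of 29 were lower and 4 higher (against 16.4%). In MedRC-like cells Cyr61, a matricellular target of stretch signals, fell by 2.32 ± 0.35 on the log2 scale (95.4, 102 and 106 CPM, against 445, 487 and 576 CPM).

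In the MRC-like class more members were higher (11 of 25) than lower (2), against 13.3% and 12.4% of all genes, with a median of 0.42. Jun, the partner of Fos, had 314, 279.7 and 331 CPM, against 249, 220.3 and 184 CPM (0.50 ± 0.10, adjusted p = 3e-04). This direction depends on which cells are counted as MRC-like. The ActSC-like cluster, named from Nr4a1, Fosb and Atf3, holds fibroblastic cells with high immediate early levels (171 cells in live and 203 in fixed draining nodes) apart from the other classes. Without the responsive genes in the clustering, 1 of 28 members was higher and 7 were lower in MRC-like cells (median −0.44), and Jun turned to −0.41.

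Many matrix genes rose in the fibroblastic cells of live draining nodes. In all fibroblastic cells 26 of 38 genes of the collagen and matrix list were higher and 2 lower (median 0.41). In MRC-like cells 23 of 34 were higher and 2 lower (0.68), and in MedRC-like cells 22 of 37 and 0 lower (0.59). In PRC-like cells 10 of 37 were higher and 0 lower (0.52), and in TRC-like cells 11 of 37 and 4 lower (0.16). Over all genes, in the same order, 15%, 13.3%, 5.64%, 1.77% and 4.94% were higher and 12%, 12.4%, 4.14%, 1.37% and 3.35% lower. The fold change itself was higher in MRC-like than in TRC-like cells for 10 of 34 members and lower for 1, where 162 of 10910 genes differed (1.48%). That number was 58 to 100 when 1 library was left out (58 without live draining replicate B), 102 with the library code as a term and 1196 with only the 6 draining libraries. Col3a1, a fibrillar collagen and one of the genes that named the fibroblastic cells, had 2056, 1569 and 1691 CPM in MRC-like cells of live draining nodes, against 512, 564 and 511 CPM (1.74 ± 0.13, adjusted p = 3.8e-15), and in MedRC-like cells 5942, 5444 and 4675 CPM, against 2509, 2588 and 2386 CPM (1.10 ± 0.09). Fibronectin (Fn1) had 1777, 1832 and 1578 CPM in MRC-like cells, against 600.0, 404 and 412 CPM (1.87 ± 0.32, adjusted p = 0.0011), while in TRC-like cells it overlapped (1383 ± 53.7 and 1496 ± 115 CPM, adjusted p = 0.54). The microfibril gene Fbn2 rose by 2.04 ± 0.18 in MRC-like cells (216, 172 and 189 CPM, against 41.6, 48.1 and 50.7 CPM) and the large proteoglycan Vcan by 3.27 ± 0.32 (24.8 ± 2.37 and 2.57 ± 1.35 CPM).

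Matrix proteases moved with the matrix, 15 of 29 higher and 0 lower in all fibroblastic cells, against 15% and 12% of all genes. Mmp2, a gelatinase, had 101, 98.9 and 98.8 CPM in MRC-like cells, against 21.4, 15.9 and 27.4 CPM (2.23 ± 0.14, adjusted p = 8.5e-18). It also rose in MedRC-like cells (335 ± 25.7 and 171 ± 16.9 CPM, 0.97) and TRC-like cells (95.5 ± 10.4 and 64.8 ± 8.51 CPM, 0.57), and did not pass in PRC-like cells (585 ± 29.0 and 657 ± 18.0 CPM, adjusted p = 0.74). Mmp9, the other gelatinase, had 165, 185 and 141 CPM in MRC-like cells, against 74.7, 49.8 and 56.2 CPM (1.46 ± 0.16). Mmp3, a stromelysin, had 740.1, 815 and 528 CPM, against 135, 138 and 211 CPM (2.12 ± 0.47, adjusted p = 0.0059). The inhibitor Timp3 fell by 1.12 on the log2 scale (77.0, 78.6 and 87.4 CPM, against 199, 175 and 151 CPM).

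In PRC-like cells the elastic fiber genes Eln, Mfap4 and Lox rose. Elastin (Eln) had 2221, 2972 and 2717 CPM in live draining nodes, against 489.8, 681 and 759.7 CPM (2.04 ± 0.23, adjusted p = 7.7e-05), and the microfibril protein Mfap4 had 441, 477 and 628 CPM, against 38.8, 83.9 and 24.9 CPM (3.36 ± 0.52, adjusted p = 0.004). Lox, which crosslinks elastin and collagen, rose by 1.74 ± 0.16. Penk, which encodes an opioid precursor, fell (45.8, 64.1 and 43.8 CPM, against 245, 182 and 218 CPM, −2.06 ± 0.24), as did the vessel-destabilizing Angpt2 (17.0 ± 5.85 and 82.0 ± 10.4 CPM, −2.24).

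Of the homeostatic chemokines and niche factors of reticular cells, 8 of 18 genes fell and 0 rose in MRC-like cells (median −0.42). Over all genes of this class, 12.4% fell and 13.3% rose. The stem cell factor Kitl had 257, 257 and 259 CPM in live draining nodes, against 402, 459 and 516 CPM (−0.83 ± 0.10, adjusted p = 7.9e-09), and the B cell survival factor Tnfsf13b had 149, 118 and 115 CPM, against 207, 237 and 203 CPM (−0.76 ± 0.12). The lymphotoxin chain Ltb and the macrophage factor Il34 fell by 0.92 and 1.53 on the log2 scale. Cxcl13, which draws B cells to follicles, overlapped in MRC-like cells (26829.6 ± 658 and 26262 ± 1440.0 CPM, adjusted p = 0.93). It is a naming marker of that class, as Ccl19 and Ccl21a are of TRC-like cells, so the level of each within its class is no finding. In TRC-like cells Ccl21a overlapped (33028 ± 1661 and 32816 ± 1027 CPM, adjusted p = 0.96), Ccl19 had 5039.8, 3907 and 4062 CPM, against 5126, 5169 and 5509.9 CPM (−0.28 ± 0.14, adjusted p = 0.29), and Cxcl13 was higher (561, 745 and 921 CPM, against 286, 409 and 246 CPM, 1.23 ± 0.33, adjusted p = 0.041), a call lost in 5 of the 6 fits that left out a library (adjusted p = 0.047 to 0.15 over the 6). Ccl2, a monocyte chemokine, rose in MRC-like cells (38.4, 42.0 and 59.6 CPM, against 13, 9.84 and 6.86 CPM, 2.20 ± 0.35, adjusted p = 0.00024), a direction that turned to −0.29 when cells were clustered without the responsive genes.

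The alarmin Il33, released by damaged stromal cells, was higher in MedRC-like, PRC-like, TRC-like, fLEC-like and MedLEC-like cells. Its levels in MRC-like cells and the other stromal classes are not given here. It had 948, 932 and 999.7 CPM in MedRC-like cells of live draining nodes, against 359.9, 364 and 281 CPM (1.52 ± 0.12, adjusted p = 2.9e-09), and 505, 404 and 488 CPM in PRC-like cells, against 116, 151 and 197 CPM (1.59 ± 0.18). In TRC-like cells the difference was smaller (663, 656 and 654 CPM, against 550.4, 484 and 497 CPM, 0.36 ± 0.07). In fLEC-like cells Il33 rose by 0.68 ± 0.09, and in MedLEC-like cells, where it is a naming marker, by 1.23 ± 0.13.

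Clock output genes fell in MRC-like and fLEC-like cells. In MRC-like cells 12 of 16 members of the circadian list were lower and 0 higher (median −0.76). In fLEC-like cells 9 of 17 were lower and 1 higher (median −0.53). Over all genes, 12.4% were lower and 13.3% higher in MRC-like cells, and 16.4% and 18.4% in fLEC-like cells. Nr1d1, a repressor of the clock, had 7.72, 9.65 and 8.09 CPM in MRC-like cells of live draining nodes, against 31.2, 36.6 and 37.0 CPM (−2.02 ± 0.20, adjusted p = 8.2e-11). The output factor Hlf had 21.6, 31.2 and 21.6 CPM, against 63.6, 68.9 and 74.0 CPM (−1.45 ± 0.15), and its naive mean was 68.6 CPM. The time of day at which nodes were taken is not given in the sources used here, and its part was not tested. Division genes were higher in MRC-like cells (13 of 24 higher, 1 lower), among them the tubulin regulator Stmn1 (34.4 ± 2.49 and 7.80 ± 2.82 CPM, 2.13) and the mitotic kinase Cdk1 (18.6 ± 0.885 and 5.83 ± 3.27 CPM, 1.61). The hepcidin gene Hamp2 fell (79.0, 65.4 and 68.6 CPM, against 272, 356 and 272 CPM, −2.08 ± 0.11), as did the Wnt inhibitor Wif1 (43.7 ± 4.71 and 167 ± 23.1 CPM, −1.92).

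Leukocytes shared the type I interferon rise in part. In DCs 25 of 36 members were higher and 1 lower (median 0.82, against 7.14% of all genes higher), and in monocytes and macrophages 20 of 39 were higher and 0 lower (median 0.73, against 6.61% and 3.91%), while B cells had 2 of 28 (against 0.254%) and T cells 3 of 26 higher (against 2.29%). Isg15 had 227, 356 and 294 CPM in DCs of live draining nodes, against 63.4, 32.5 and 34.0 CPM in fixed draining nodes (2.72 ± 0.34, adjusted p = 0.00047). In monocytes and macrophages it had 433, 332 and 295 CPM, against 160.3, 117 and 69.5 CPM (1.59 ± 0.39, adjusted p = 0.026), while the non-draining nodes of mice with fixed cells averaged 509 CPM. MHC class II genes rose in both (8 of 13 each, 0 lower), with H2-Ab1 at 4902, 5802 and 5714 CPM in DCs, against 4397, 3971 and 4434 CPM (0.36 ± 0.09, adjusted p = 0.0056). The costimulatory ligand Cd86 (134 ± 13.7 and 87.5 ± 0.966 CPM, 0.61) and Cd274 (121 ± 13.8 and 82.7 ± 9.99 CPM, 0.56) rose in DCs, where 9 of 25 immune modulators were higher and 0 lower.

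Monocytes and macrophages of live draining nodes had less of the C-type lectins Cd209d and Cd209f. Cd209d had 54.3, 27.2 and 51.6 CPM, against 133, 207 and 335 CPM (−2.33 ± 0.50, adjusted p = 0.013), and its relative Cd209f fell by 2.27 ± 0.48 on the log2 scale. Slfn4, an interferon-induced gene of myeloid cells, rose (64.7 ± 16.9 and 20.5 ± 3.10 CPM, 1.65). Neutrophil markers summed to 1170 to 3220 CPM in this class in live draining nodes and 402 to 452 CPM in fixed draining nodes, and their part was not tested.

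Few genes were called in lymphocytes with the classes used here (35 in B cells and 221 in T cells), while clustering without the responsive genes gave 424 in B cells and 895 in T cells, and no filter on low counts gave 136 in B cells. In B cells Ifi27l2a (603, 659 and 599.5 CPM, against 221, 202 and 232 CPM, 1.5 ± 0.24, adjusted p = 0.014) and the interferon-responsive surface protein Ly6a (289 ± 12.1 and 118 ± 30.5 CPM, 1.29) rose, and Ccr6, the receptor of Ccl20, rose by 0.91 ± 0.17 (145, 189.8 and 145 CPM, against 114, 76.6 and 62.0 CPM). Rgs13, a germinal center regulator, fell by 1.46 ± 0.29. In plasma cells the share of IgM transcripts was lower, with Ighm at 68587, 45183 and 55821 CPM, against 199285, 202186 and 231630.1 CPM (−1.90 ± 0.31, adjusted p = 0.00071). Ighg1, the IgG1 heavy chain, had 38765, 24873 and 39892 CPM, against 77.4, 3.00 and 12878 CPM, and did not pass as fixed draining replicate C stood apart (adjusted p = 0.72). Mast cells had lower Fos (1607, 1567 and 923 CPM, against 4133, 3287 and 2969 CPM, −1.32 ± 0.23) and Egr1 (−2.22 ± 0.40), from 14 to 20 cells a library in live and 53 to 66 in fixed draining nodes.

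Some genes were called in most classes. Ighg1 was higher in 12 of the 14 classes that tested it, the matrix protein Sparc in 12 of 16, Col1a1 in 11 of 16, Ifi27l2a in 10 of 15 and Ifitm3, an antiviral membrane protein, in 10 of 17. None of these was lower in any class. Among lower genes, Mir6236 fell in 12 of 17 classes, the repressor Zbtb20 in 11 of 17, and Nr4a1, Fos and Egr1 in 9 each (of 16, 17 and 17). Matrix genes were also called in leukocytes. In T cells Col3a1 had 77.1, 80.7 and 93.9 CPM in live draining nodes, against 20.3, 25.7 and 16.6 CPM (1.98 ± 0.28), while the 7 summed fibroblastic markers stood at 349 to 425 CPM, against 136 to 171 CPM. The same markers stood at 186 to 431 CPM, against 93.2 to 151 CPM, in DCs and at 691 to 874 CPM, against 351 to 557 CPM, in monocytes and macrophages, where Fn1 rose by 2.02 ± 0.39 (471, 488 and 639 CPM, against 139, 139 and 114 CPM). The part of these other-lineage transcripts in the calls was not tested.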

How the data were processed

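Single-cell RNA-seq libraries were made from cells enriched for podoplanin and counted by the authors, who deposited UMI counts per gene and cell barcode for each of 16 libraries. The submitters' processing notes name Cell Ranger 3.0.1 and mm10. The deposited matrices held 68741 barcodes and 48440 genes, and 50386 cells with 200 to 6000 genes and at most 30% mitochondrial UMIs were kept. The members, gene lists and tests were chosen with earlier results of these data known.

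Cells were clustered with Seurat 5.3.0 and sctransform 0.4.2 under R 4.3.3, clusters were named from the share of their cells with a UMI of each marker, and fibroblastic cells and LECs were clustered again. Counts were summed per library and class with at least 10 cells and fitted over all 16 libraries with edgeR 4.0.16 (quasi-likelihood, TMM). Adjusted p-values are Benjamini-Hochberg over all genes tested, shares were compared with edgeR on cell counts, and differences between classes with limma 3.58.1. Whole compartments, joined classes, single clusters and differences between classes were added after first results. The library is the replicate, and the labels give none of the letters as pairs between live and fixed nodes, which come from different mice.

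Named genes were the study's genes, up to 8 rises and 8 falls of most size among genes that were called, whose groups did not overlap and whose average log2 CPM reached 5, up to 4 members per list with the smallest p, genes called in most classes, and class markers. Automatic doublet calls by scanpy 1.11.5 marked 0.0377% of cells and were not used. A ranked marking of 2.91% was left out as an alternative. In simulated counts with 200 changed genes, 2-fold changes were recovered in 17.9% (mast cells) to 98.5% (TRC-like and fLEC-like cells) of genes. Alternatives were DESeq2 1.42.0, other normalization, no filter, the 6 draining libraries alone, a replicate block, the library code as a term, clustering without responsive genes, a 10% mitochondrial limit, doublets left out and each library left out. Promoters came from RefSeq. Some genes are not reported here.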

Additional observations from a re-analysis of the deposited data

Results flagged for a closer look

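Several genes differed in opposite directions between classes, by a limma test of the difference of the log2 fold changes (live over fixed draining nodes), adjusted over all genes tested. In all LECs against all fibroblastic cells, Cxcl9 differed by 7.31 (5.85 in LECs and −1.32 in fibroblastic cells, adjusted p = 3.6e-06), Ubd by 3.70 (2.70 and −1.04, adjusted p = 1.5e-07), Gbp8 by 3.05 (2.34 and −0.79, adjusted p = 1.9e-10), Cd200 by 2.53 (2.13 and −0.41, adjusted p = 1.2e-11) and Gbp4 by 2.25 (1.45 and −0.84, adjusted p = 8.9e-10). In fLEC-like against TRC-like cells, Cxcl9 differed by 8.60 (7.19 and −1.22), Ubd by 4.74 (3.31 and −1.50) and Gbp8 by 3.78 (2.94 and −0.99). In MRC-like against cLEC-like cells, the monocyte chemokines Ccl2 and Ccl7 differed by 4.43 (2.20 and −2.68, adjusted p = 0.027) and 3.61 (1.73 and −2.39, adjusted p = 0.0035), and the Ccl2 direction in MRC-like cells depends on the clustering.

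Barcodes with more than 6000 genes, which the limits removed, were more frequent in live draining nodes (3.37%, 4.23% and 4.88% of all barcodes) than in fixed draining nodes (1.45%, 1.51% and 0.98%). Of them, 94 of 271, 100 of 295 and 95 of 267 in live draining nodes (34.7%, 33.9% and 35.6%) and 30 of 80, 20 of 73 and 21 of 46 in fixed draining nodes (37.5%, 27.4% and 45.7%) held many markers (0.5 or more of the list) of more than 1 lineage, so these shares overlapped. By their best marker list, 145, 142 and 130 removed barcodes of live draining nodes were fibroblastic, against 24, 38 and 20 of fixed draining nodes. For LECs these numbers were 76, 103 and 84, against 21, 12 and 10. The part of this removal in the stromal shares and sums was not tested.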

How the results depend on the processing

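Limits come first. With 3 libraries a side, exact tests of shares cannot pass 0.05, in simulated counts 17.9% of 2-fold changes were recovered in mast cells and 52.2% in FDC-like cells, the library code overlaps with the treatment, and classes were built from genes that themselves differ. Within the code 06 libraries alone, 99.3% to 100% of the genes called in the 17 classes had the same direction, in libraries that the calls already used. Live and fixed draining libraries of the same letter, which come from different mice, had correlations of −0.152 to 0.099 over the classes and both compartments. Draining and non-draining nodes of the same letter may share a mouse. That pairing did not enter the main fit and was not tested. A replicate block kept the count of calls within 1.5 times in each class and compartment, while it gave 123 in place of 225 in cluster 14 of monocytes and macrophages and 71 in place of 109 for the difference of MRC-like and MedRC-like cells.

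Counts of genes called that moved were, with DESeq2, ActSC 582, BEC 109, CorLEC 78 and TRC 577, with DESeq2's size factors mast cells 9, and with no filter B 136, BEC 133, mast 70, plasma 121 and PRC 429. With only the 6 draining libraries they were B 85, BEC 120, CorLEC 205, FDC 162, mast 4, monocytes and macrophages 1782, plasma 227 and PRC 416. With the library code as a term they were ActSC 544, B 12, BEC 4, cLEC 1685, CorLEC 66, DC 801, FDC 5, fLEC 2589, mast 5, MedLEC 806, MedRC 700, monocytes and macrophages 307, MRC 1795, plasma 21, PRC 56, T 94, TRC 359 and all fibroblastic cells 2697. Clustering without responsive genes gave B 424, CorLEC 11, FDC 35, MedLEC 850, MedRC 327, monocytes and macrophages 2101 and T 895, and a 10% mitochondrial limit gave BEC 105, CorLEC 77, DC 467, FDC 36, mast 10 and monocytes and macrophages 557. The cause was not tested.

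Leaving out 1 library gave 575 to 719 calls in ActSC, 8 to 28 in B, 0 (without live draining A) to 138 (without live draining B) in BEC, 2291 to 2441 in cLEC, 61 to 89 in CorLEC, 718 (without live draining C, and 841 without live draining B) to 1238 in DC, 7 to 39 in FDC, 3126 to 3332 in fLEC, 7 to 26 in mast cells, 904 to 1185 in MedLEC, 634 (without fixed draining B, and 685 without live draining A) to 906 in MedRC, 656 to 730 in monocytes and macrophages, 2046 to 2514 in MRC, 6 to 29 in plasma cells, 138 to 179 in PRC, 100 to 196 in T, 577 to 714 in TRC, 4572 to 4806 in all LECs and 3124 to 3455 in all fibroblastic cells. For genes that differed between 2 classes, the library code lowered and the 6 draining libraries alone raised the count by more than 1.5 times in each of the 11 pairs compared. Leaving out 1 library gave 758 to 821 for all LECs against all fibroblastic cells, 482 (without fixed draining C) to 577 for fLEC-like against TRC-like, 550 to 584 for fLEC-like against cLEC-like and 123 to 147 (in place of 244) for MRC-like against cLEC-like cells.

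For log2 ratios of shares, the library code gave 0.08 for fibroblastic cells, −0.68 for BEC and 0.65 for plasma cells, and limma on logit shares 0.49 for PRC. Clustering without responsive genes gave −0.43 for FDC, −0.37 for MedRC, 0.26 for MRC, −0.18 for TRC, 0.11 for monocytes and macrophages, −1.68 for pericytes, 0.30 for plasma cells, −0.36 for T cells (now past the threshold) and −0.53 for fLEC, a reversal. The 10% limit gave −0.26 for MedRC, −0.25 for CorLEC, −1.06 for BEC, 0.58 for plasma cells and −0.50 for T cells. For plasma cells the replicate block gave 0.75 and leaving out doublets 0.72. Leaving out 1 library gave 0.07 to 0.19 for fibroblastic cells, 0.41 to 0.50 for PRC, 0.21 to 0.32 for fLEC and 0.64 to 0.84 for plasma cells. Without thinning, mean shares of cells with a UMI in live and fixed draining nodes were 75.4% and 7.97% for fLEC Cxcl9, 50.9% and 5.89% for MedLEC Cxcl9, 34.7% and 31.9% for TRC Cxcl9, 89.7% and 33.2% for fLEC Ccl20, and 52.2% and 0.847% for fLEC Fgf23. Of named genes, Jun (−0.41) and Ccl2 (−0.29) in MRC-like and Ccl19 (−0.06) in MedRC-like cells reversed without responsive genes in the clustering.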
